A study of Mus musculus with 4 samples.

Results

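Transcripts of 4 CXC chemokine genes that attract neutrophils (Cxcl1, Cxcl2, Cxcl3 and Cxcl5) and of their receptor gene Cxcr2 were followed through mouse liver cells. The 5 genes were chosen by symbol among the 55414 genes of each count matrix, with earlier results of these data known. Their UMIs (unique molecular identifiers, each standing for 1 captured transcript) were summed over all kept cells of a library and within 5 classes of cells: neutrophils, macrophages, monocytes, endothelial cells and hepatocytes. Levels are given as UMIs per 1000000 UMIs of the same class and library (CPM).

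The 4 libraries were 10x 3′ single-cell RNA libraries of liver cells from 2-month-old mice: S/S mice 3 h after 500 ng of TNF given intraperitoneally, A/A mice 3 h after the same dose, S/S mice at baseline and A/A mice at baseline. S/S and A/A are genotypes, and the labels do not say what the letters stand for. The liver was perfused and digested, non-parenchymal cells were enriched by slow centrifugation, and a cell sort enriched macrophages and live cells, so the shares of cell classes are those of the sorted suspension and not of the liver. Cells of 2 mice were pooled per library and each group had 1 library. No difference between groups therefore has a replicate check, and the 95% intervals given cover counting error only.

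The 4 ligands are small secreted proteins with a Glu-Leu-Arg motif ahead of their first cysteines, the feature that lets CXC chemokines bind CXCR2. CXCR2 is the G protein-coupled receptor by which neutrophils follow these ligands out of the blood, and it also clears them from the surroundings by taking them up. In mouse liver, CXCL1 and CXCL2 made by macrophages, endothelial cells, hepatocytes and neutrophils themselves are known to draw neutrophils into the sinusoids after an inflammatory stimulus, and TNF is a classical inducer of these genes through the transcription factor NF-kB.

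The stretches just before the start of the 3 ligand genes with the most UMIs are shown beside that of the receptor gene, because the ligand levels and the receptor level differed in how they stood after TNF. Sequences are from RefSeq on GRCm38.p6, read on the plus strand, the 110 bases that end at the base before the gene start. Capitals mark the 2 stretches of at least 8 bases that the 3 ligand windows all hold: GGGAATTTCCC, which has the form of an NF-kB site, and ATAAAAGG, a TATA-type element.
Cxcl1, chr5:90891135-90891244: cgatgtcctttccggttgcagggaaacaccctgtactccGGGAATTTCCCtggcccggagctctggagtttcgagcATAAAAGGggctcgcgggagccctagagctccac
Cxcl2, chr5:90903789-90903898: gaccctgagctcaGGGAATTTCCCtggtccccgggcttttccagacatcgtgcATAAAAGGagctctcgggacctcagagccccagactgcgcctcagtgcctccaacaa
Cxcl3, chr5:90785991-90786100: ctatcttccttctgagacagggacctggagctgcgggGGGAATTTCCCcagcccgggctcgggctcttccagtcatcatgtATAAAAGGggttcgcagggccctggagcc
Cxcr2, chr1:74153884-74153993: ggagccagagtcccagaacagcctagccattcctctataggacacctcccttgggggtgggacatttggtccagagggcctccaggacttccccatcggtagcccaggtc
GGGAATTTCCC began 71 bases before the start of Cxcl1, 97 before that of Cxcl2 and 73 before that of Cxcl3, and ATAAAAGG followed it at 34, 57 and 29 bases before the start. Searched on both strands, GGGAATTTCCC was in 14 of 32851 promoters of 300 bases (0.0426%) and ATAAAAGG in 577 of them (1.76%). Both stretches were chosen because the 3 ligand windows share them, so these shares are a description and no test of the ligands. The stretches do not overlap. The looser form GGGNNNNNCC was in 50.8% of all promoters, that of Cxcr2 included. These matches are letters in a window and were not measured as sites. Sequences were matched for 4 of the 5 genes.

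The 4 ligand genes lie on chromosome 5 in the order Cxcl5, Ppbp, Pf4, Cxcl3, Cxcl15, Cxcl1 and Cxcl2, together with other chemokine genes, and Cxcr2 lies on chromosome 1. In the reference transcripts the longest stretch that Cxcl2 and Cxcl3 share without a difference is 110 bases, against 23 bases for Cxcl1 with either of them. Reads inside the shared stretch of Cxcl2 and Cxcl3 cannot be assigned by sequence, so low values of Cxcl3 beside a high Cxcl2 are uncertain.

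After filtering, the libraries held 5528 cells (S/S TNF), 6452 cells (A/A TNF), 4366 cells (S/S baseline) and 2830 cells (A/A baseline), with 53969689, 53463285, 29710749 and 20514857 UMIs in that order. A per-cell gate on marker genes put 70.9 to 81.3% of them in a class, and all 10 markers of the neutrophil, macrophage, endothelial and hepatocyte classes were over 2-fold higher in their own class than in other cells of the same library. The same markers made the gate, so these differences follow largely from it and are no separate check of the classes. Neutrophils numbered 856, 1146, 137 and 113 in the same order of libraries, macrophages 290, 442, 376 and 367, and hepatocytes 408, 402, 266 and 442. Monocytes numbered 552, 327, 216 and 52, with 8 to 11 of their 12 markers over 2-fold; Eno3, Spn, Ly6c2 and Cd300e missed it in at least 1 library. Endothelial cells numbered 442, 920, 19 and 256, and the 19 of S/S at baseline were too few to compare. When the cells were clustered, TNF and baseline cells of a class lay mostly in different clusters. Neutrophils of the TNF libraries filled 2 clusters of 673 and 513 cells (S/S) and 800 and 761 cells (A/A), which held 6 and 6 cells of S/S and 1 and 0 cells of A/A at baseline; the baseline neutrophils lay in another cluster of 148 (S/S) and 137 (A/A) cells with 0 TNF cells. The main macrophage cluster of the TNF libraries held 380 and 454 cells (S/S and A/A) and 7 and 13 at baseline, and that of monocytes 737 and 396 cells and 2 and 0 at baseline. The 10 neutrophil markers summed to a median of 1238 and 1393 UMIs per 10000 in neutrophils after TNF (S/S and A/A), against 297 and 295 at baseline. The TNF ratios of a class therefore compare cells that also differ in other genes. Any 2 libraries shared 4 to 12 barcodes. TNF and baseline libraries were made with different Cell Ranger versions, so version and treatment cannot be told apart.

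Cxcl2 was the member with the most UMIs after TNF, and it was higher after TNF in every class that could be compared. It encodes MIP-2, a strong neutrophil attractant. Over all kept cells it had 95566 UMIs (1771 CPM) in S/S after TNF and 69593 UMIs (1302 CPM) in A/A after TNF, against 733 UMIs (24.7 CPM) in S/S at baseline and 121 UMIs (5.90 CPM) in A/A at baseline. The library totals follow both the level in each class and the mix of classes, and neutrophils made up 15.5% and 17.8% of the kept cells after TNF (S/S and A/A) against 3.14% and 3.99% at baseline. Fewer cells of a class and less RNA per cell cannot be told apart in a library total, so the classes are given one at a time.

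In neutrophils Cxcl2 stood at 8672 CPM (interval 8590 to 8755) in S/S after TNF and 5917 CPM (5859 to 5975) in A/A after TNF, against 380 CPM (332 to 432) in S/S at baseline and 34.0 CPM (20.4 to 53.0) in A/A at baseline. It was the highest class of both TNF libraries, and no interval of a TNF library came near that of its baseline library. TNF over baseline was 22.8-fold in S/S (20.1 to 26.1) and 174-fold in A/A (112 to 289). The A/A ratio was the larger, with 19 Cxcl2 UMIs behind its baseline.

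In the TNF libraries Cxcl2 was in most neutrophils. At least 1 Cxcl2 UMI was in 97.1% of neutrophils of S/S after TNF and 94.3% of A/A after TNF, against 23.4% in S/S at baseline and 9.73% in A/A at baseline. With every cell thinned to 1000 UMIs, which removes the difference in depth and leaves out 0 to 18 shallower neutrophils per library, the shares were 93.1%, 85.4%, 11.5% and 0.885% in the same order. As a measure of free RNA in the droplets, T cells held a thinned Cxcl2 UMI in 7.63% of cells in S/S after TNF and 3.88% in A/A after TNF, and B cells in 5.23% and 4.61%.

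Monocytes also held Cxcl2 in most cells after TNF. It stood at 1512 CPM in S/S after TNF and 1377 CPM in A/A after TNF, against 119 CPM in S/S at baseline and 4.05 CPM in A/A at baseline. Thinned, 52.1% and 59.7% of monocytes held a UMI after TNF (S/S and A/A), against 3.76% and 0% at baseline. The baseline levels rest on few cells: of 368 UMIs in S/S, 165 and 81 were in 2 barcodes, and A/A had 3 UMIs. TNF over baseline was 12.7-fold in S/S and 340-fold (116 to 1651) in A/A.
Both kinds of monocyte held it: classical monocytes had 1567 CPM in S/S after TNF and 1405 CPM in A/A after TNF, and nonclassical monocytes 1102 and 781 CPM.

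In macrophages Cxcl2 stood at 1952 CPM (1889 to 2016) in S/S after TNF and 1083 CPM (1032 to 1136) in A/A after TNF, against 8.61 CPM in S/S at baseline and 69.4 CPM in A/A at baseline. The baseline values are 6 UMIs in S/S and 70 UMIs in A/A, of which 56 were in 1 barcode. Thinned, 34.6% of macrophages in S/S after TNF and 22.9% in A/A after TNF held a UMI, against 0.346% and 1.502% at baseline. The macrophage signal was thus in fewer cells than the neutrophil signal. TNF over baseline was 7.67 on the log2 scale in S/S macrophages and 3.95 in A/A macrophages, the logarithm being taken of CPM plus 1. Macrophages with at least 2 of 4 Kupffer cell markers, the resident macrophages of the liver, had 2149 CPM in S/S after TNF and 1148 CPM in A/A after TNF, against 0 and 16.2 CPM at baseline.

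Hepatocytes and endothelial cells held less Cxcl2, and the depth of their signal calls for more care. Hepatocytes had 1077 CPM in S/S after TNF and 292 CPM in A/A after TNF, against 56.0 CPM in S/S at baseline, all 21 UMIs of it in 1 barcode, and 0 UMIs in A/A at baseline. Endothelial cells had 329 CPM in S/S after TNF and 113 CPM in A/A after TNF, against 0 UMIs in A/A at baseline. Taking 3 UMIs per class and library as the limit that a count of 0 allows, A/A was at least 82.2-fold higher after TNF in hepatocytes and at least 21.04-fold higher in endothelial cells. Thinned, 26.2% and 10.5% of hepatocytes (S/S and A/A after TNF) and 14.4% and 9.19% of endothelial cells held a UMI, above the shares of B and T cells of the same libraries. Some intervals overlapped. In A/A those of hepatocytes (7.28 to 14.6%) and endothelial cells (7.34 to 11.3%) met that of B cells (2.23 to 8.31%). In S/S that of endothelial cells (11.2 to 18.1%) met those of T cells (4.58 to 11.8%) and cells gated as erythroid (7.36 to 12.0%).

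Neutrophil RNA in hepatocyte droplets was also higher after TNF than at baseline. After TNF it was lower in S/S than in A/A hepatocytes, whereas Cxcl2 was higher in S/S. S100a8 and S100a9, abundant neutrophil transcripts, summed to 585 CPM in hepatocytes of S/S after TNF and 1150 CPM in those of A/A after TNF, against 235 CPM in those of S/S at baseline. The 10 neutrophil markers summed to a median of 5.28 and 8.31 UMIs per 10000 in hepatocytes after TNF (S/S and A/A), against 0 in both baseline libraries, and their part in the hepatocyte values was not tested. Cxcl2 was also set against 2 measures of neutrophil RNA within each class, Cxcr2 and the sum of S100a8 and S100a9. In S/S after TNF there were 4.96 Cxcl2 UMIs per Cxcr2 UMI in neutrophils, against 49.8 in hepatocytes, 78.5 in endothelial cells, 370 in macrophages and 400 in monocytes. In A/A after TNF the neutrophil value was 2.58, against 10.8 in hepatocytes, 12.2 in endothelial cells, 155 in macrophages and 212 in monocytes. B cells had 10.1 in S/S after TNF and 4.91 in A/A after TNF, and T cells 25.2 and 7.24. Per 100 UMIs of S100a8 and S100a9, hepatocytes had 184 Cxcl2 UMIs in S/S after TNF and 25.4 in A/A after TNF, against 5.87 and 3.82 in neutrophils. Endothelial cells had 117 and 18.3, B cells 18.7 and 8.66, and T cells 36.4 and 13.1. Both ratios of hepatocytes and endothelial cells stood further above those of B and T cells in S/S than in A/A. NK or ILC1 cells had 12.1 Cxcl2 UMIs per Cxcr2 UMI in S/S after TNF and 11.5 in A/A after TNF. Per 100 UMIs of S100a8 and S100a9 they had 66.0 in S/S and 31.9 in A/A after TNF. In A/A that was above the hepatocytes and endothelial cells.

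Ordered by level, S/S after TNF ran neutrophils, macrophages, monocytes, hepatocytes, endothelial cells, B cells and T cells, and only the last pair overlapped in their counting intervals (203 to 252 CPM for B cells and 180 to 215 CPM for T cells). A/A after TNF ran neutrophils, monocytes, macrophages, hepatocytes, endothelial cells, B cells and T cells, with the same pair overlapping. NK or ILC1 cells of A/A after TNF stood at 116 CPM (99.5 to 135), which overlaps the endothelial cells at 113 CPM (105 to 123). At 1000 UMIs per cell the S/S order of macrophages and monocytes was the other way round, with monocytes at 1681 CPM and macrophages at 921 CPM, and in A/A monocytes stood at 1646 CPM and macrophages at 448 CPM. By share of all Cxcl2 UMIs of the library, neutrophils held 44.8% in S/S after TNF and 58.1% in A/A after TNF, against 31.2% in S/S at baseline and 15.7% in A/A at baseline. Macrophages held 3.88% and 2.44% after TNF, and monocytes 17.2% and 13.1%. Ungated cells held 28.9% and 23.4% after TNF, and gated classes also hold free RNA, so the shares by class describe the gated droplets.

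Cxcl1 encodes KC, the mouse attractant most used as a marker of neutrophil recruitment. It was nearly absent at baseline, and among the 5 classes it had its highest levels in hepatocytes, macrophages and endothelial cells after TNF. Over all kept cells it had 1646 UMIs (30.5 CPM) in S/S after TNF and 1078 UMIs (20.2 CPM) in A/A after TNF, against 5 UMIs in S/S at baseline and 7 UMIs in A/A at baseline. Hepatocytes had 244 CPM (212 to 280) in S/S after TNF and 195 CPM (169 to 224) in A/A after TNF, against 8.00 CPM (3 UMIs) in S/S at baseline and 4.73 CPM (4 UMIs) in A/A at baseline. The intervals of the TNF and baseline libraries did not overlap in either genotype, and TNF over baseline was 30.5-fold in S/S (10.3 to 149) and 41.2-fold in A/A (15.8 to 153).

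Macrophages had 198 CPM (179 to 219) in S/S after TNF and 164 CPM (145 to 186) in A/A after TNF, against 0 UMIs in S/S at baseline and 2.97 CPM (3 UMIs) in A/A at baseline. The macrophage and hepatocyte intervals overlapped in both TNF libraries. The cells behind them differed: thinned to 1000 UMIs, 16.2% and 14.6% of hepatocytes held Cxcl1 after TNF (S/S and A/A), against 3.94% and 1.33% of macrophages. In A/A after TNF 115 of the 258 macrophage UMIs were in 1 barcode, and the log2 ratio of TNF over baseline in A/A macrophages was 5.38 with all cells and 2.59 without the 1% of cells with the most UMIs. Thinning left out 179 and 108 hepatocytes under 1000 UMIs and 36 and 67 macrophages (S/S and A/A after TNF), and the thinned levels were 214 and 153 CPM in hepatocytes against 59.1 and 24.0 CPM in macrophages.

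Endothelial cells had Cxcl1 at 82.5 CPM in S/S after TNF and 42.7 CPM in A/A after TNF, against 0 UMIs in A/A at baseline. Thinned, 4.88% and 2.79% of endothelial cells held a UMI (S/S and A/A after TNF), against 0% and 0% of B cells and 0% and 0.125% of T cells. Their thinned levels were 83.7 and 30.2 CPM (S/S and A/A after TNF), above the thinned levels of macrophages, so the order of these 2 classes turned on a few deep macrophages. Neutrophils had 22.3 CPM in S/S after TNF and 10.1 CPM in A/A after TNF, and monocytes 9.76 and 5.74 CPM, with 0 UMIs in either class at baseline. Neutrophils thus stood at the top of the Cxcl2 order and near the bottom of the Cxcl1 order, and the neutrophil and monocyte intervals overlapped in A/A alone. Of all Cxcl1 UMIs, macrophages held 22.8% and 23.9% (S/S and A/A after TNF), endothelial cells 20.4% and 22.5%, hepatocytes 12.3% and 18.6% and neutrophils 6.68% and 6.40%.

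**Figure D1:**
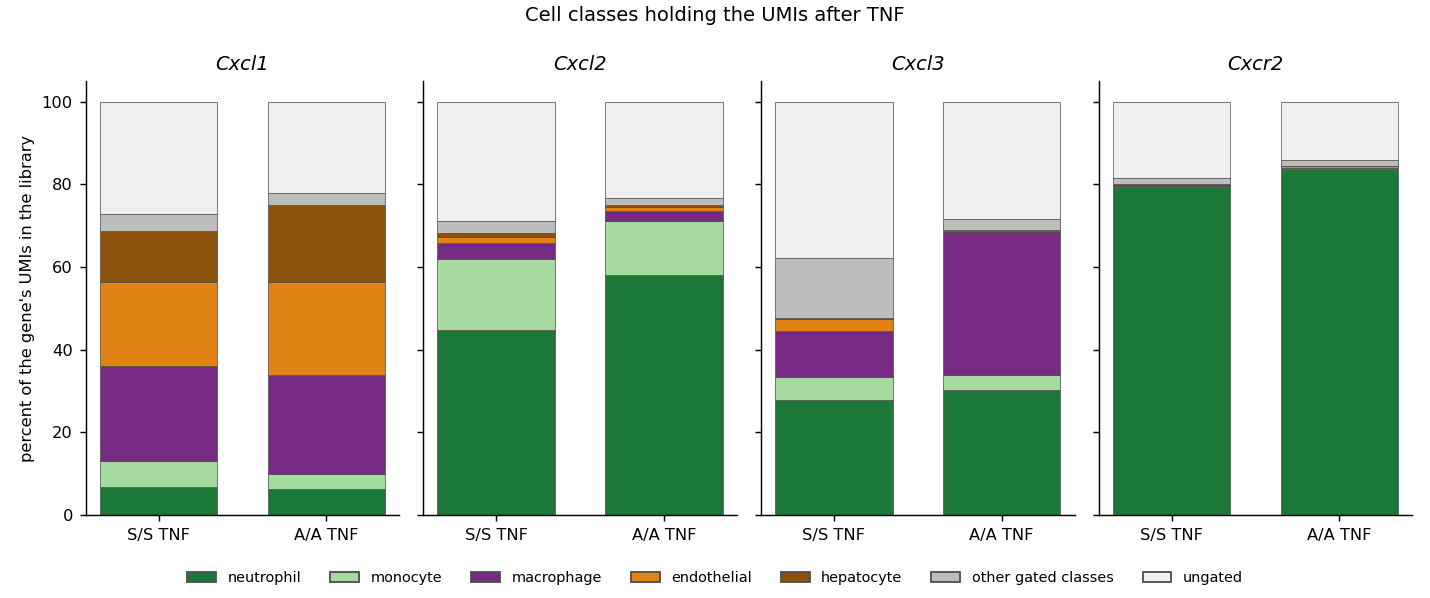
Share of each gene's UMIs (percent of the library's UMIs of that gene) by class, ungated cells included, 1 bar per TNF library. In the TNF libraries neutrophils held 44.8 and 58.1% of Cxcl2 and 6.68 and 6.40% of Cxcl1 (S/S and A/A), and 79.3 and 83.8% of Cxcr2.

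Cxcl3, which encodes DCIP-1, a close relative of MIP-2, was carried by fewer cells and split the genotypes most. It had 2825 UMIs in S/S after TNF and 509 UMIs in A/A after TNF, against 57 UMIs in S/S at baseline and 1 UMI in A/A at baseline. In neutrophils it stood at 160 CPM (149 to 171) in S/S after TNF and 22.5 CPM (19.1 to 26.4) in A/A after TNF, against 3.31 CPM (2 UMIs) in S/S at baseline and 0 UMIs in A/A at baseline. The thinned share of neutrophils with a UMI was 7.13% in S/S after TNF and 1.86% in A/A after TNF. TNF over baseline was 48.2-fold in S/S (13.3 to 399), and A/A was at least 4.20-fold higher after TNF.

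In macrophages Cxcl3 stood at 165 CPM in S/S after TNF and 112 CPM in A/A after TNF, with 0 UMIs at baseline in both genotypes. Few cells made these levels. All 176 UMIs of A/A after TNF were in 3 cells, 85 and 84 of them in 2 barcodes. The 313 UMIs of S/S after TNF were in 21 cells, with 94 UMIs in the top barcode. Monocytes had 14.4 CPM in S/S after TNF and 2.72 CPM in A/A after TNF, against 15.8 CPM in S/S at baseline, where 46 of 49 UMIs were in 1 barcode, and 0 UMIs in A/A at baseline. Endothelial cells had 19.95 CPM in S/S after TNF, with 44 of 81 UMIs in 1 barcode, and 0.176 CPM (1 UMI) in A/A after TNF. Hepatocytes had 14.4 CPM in S/S after TNF and 1.94 CPM in A/A after TNF. Outside neutrophils, the class level of Cxcl3 thus came from few cells, at most 29 in a class (S/S monocytes after TNF).

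Cxcl5, which encodes LIX and is known in mice mainly from epithelial cells and platelets, was hardly captured. It had 4 UMIs in S/S after TNF and 10 UMIs in A/A after TNF, against 0 UMIs in both baseline libraries. Of the 10 UMIs, 5 were in 1 of the 2 cells gated as cholangiocytes. No class reached the 20 UMIs set as the minimum for a ratio, and a difference was not detectable at this depth.

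**Figure D2:**
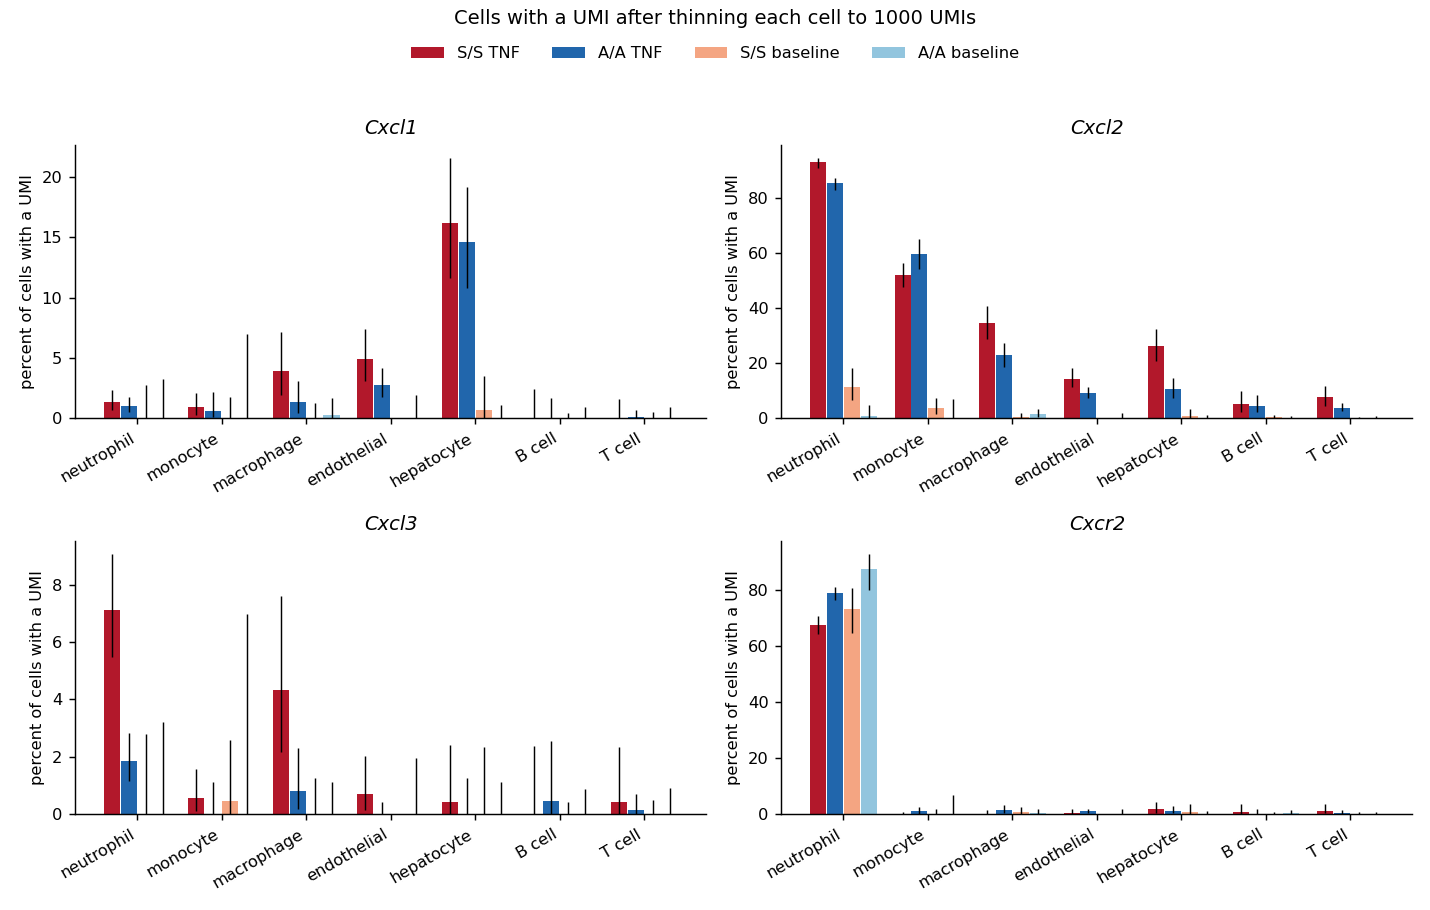
Share of cells with at least 1 UMI of each gene (percent, with exact binomial 95% intervals) after every cell was thinned to 1000 UMIs, by class and library. Cxcl2 was in 93.1 and 85.4% of neutrophils after TNF (S/S and A/A) against 11.5 and 0.885% at baseline, and Cxcl1 was in more hepatocytes (16.2 and 14.6%) than macrophages (3.94 and 1.33%) after TNF.

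Cxcr2, the receptor gene, was a neutrophil transcript in all 4 libraries and moved little with TNF per neutrophil UMI. Neutrophils had 1749 CPM (1712 to 1786) in S/S after TNF and 2297 CPM (2261 to 2333) in A/A after TNF, against 1440 CPM (1346 to 1539) in S/S at baseline and 2130 CPM (2011 to 2254) in A/A at baseline. A UMI was in 87.7% and 93.5% of neutrophils after TNF (S/S and A/A), against 91.2% and 99.1% at baseline, and thinned the shares were 67.5% and 78.9%, against 73.3% and 87.6%. The level was slightly higher and the share of cells slightly lower after TNF, so no single direction is given.

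The log2 ratio of Cxcr2 in neutrophils, TNF over baseline, was 0.28 in S/S (0.18 to 0.38) and 0.11 in A/A (0.02 to 0.19). Over all genes compared in neutrophils the median log2 ratio was -0.74 in S/S and -0.42 in A/A, so the receptor stood above the median gene. S100a8 and S100a9 took 147790 CPM in neutrophils of S/S after TNF and 154710 CPM in those of A/A after TNF, against 66362 and 33286 CPM at baseline, which lowers every other gene's share. Scaled by median-of-ratios size factors in place of class totals, the log2 ratio of Cxcr2 was 1.25 in S/S and 0.95 in A/A. The size of its TNF difference therefore depends on the scaling. Cxcr2 has 4210 intron-only bases, those that lie in no exon of any annotated transcript, against 0 in Cxcl1, Cxcl2 and Cxcl3. A count of 0 does not mean that a gene lacks introns. Whether introns were counted is not given in the sources used here. If it differed between the software versions, it would bear on the TNF ratios of Cxcr2 and of other genes with introns. Its part in these ratios, those of the ligands included, was not tested.

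Over all kept cells Cxcr2 had 201 CPM in S/S after TNF and 351 CPM in A/A after TNF, against 32.6 CPM in S/S at baseline and 72.6 CPM in A/A at baseline. That difference stands beside the larger share of neutrophils after TNF, and neutrophils held 79.3%, 83.8%, 89.6% and 80.1% of all Cxcr2 UMIs (S/S TNF, A/A TNF, S/S baseline, A/A baseline). Hepatocytes had 21.6 CPM in S/S after TNF and 27.1 CPM in A/A after TNF, against 5.33 CPM in S/S at baseline and 2.37 CPM in A/A at baseline. Monocytes had 3.77 and 6.50 CPM after TNF (S/S and A/A), against 0.970 CPM in S/S at baseline and 0 UMIs in A/A at baseline. Macrophages had 5.27 and 7.0 CPM after TNF (S/S and A/A), against 4.30 and 3.96 CPM at baseline. B cells had 22.5 CPM in S/S after TNF and 16.0 CPM in A/A after TNF, against 1.73 and 1.44 CPM at baseline, and T cells had 7.83 and 8.75 CPM after TNF. Hepatocytes were thus at the B cell level in S/S after TNF and above it in A/A after TNF, where the counting intervals of hepatocytes (18.0 to 39.2 CPM) and B cells (11.1 to 22.2 CPM) overlapped. The source of the low values outside neutrophils was not tested.

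Ligand and receptor transcripts were found in the same neutrophils. Thinned to 1000 UMIs, 64.1% of neutrophils in S/S after TNF and 67.6% in A/A after TNF held both Cxcl2 and Cxcr2, against 8.40% in S/S at baseline and 0.885% in A/A at baseline. Cxcr2 without Cxcl2 was in 3.45% and 11.3% after TNF, against 64.9% and 86.7% at baseline. Cxcl2 without Cxcr2 was in 29.0% and 17.8% after TNF, against 3.05% and 0% at baseline. The most common neutrophil at baseline carried the receptor transcript alone, and after TNF it carried both. Neutrophils with a Cxcr2 UMI averaged 8.98 thinned Cxcl2 UMIs in S/S after TNF and 6.06 in A/A after TNF, and those without one 9.54 and 7.05, so cells with and without the receptor transcript carried the ligand at close levels.

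**Figure D3:**
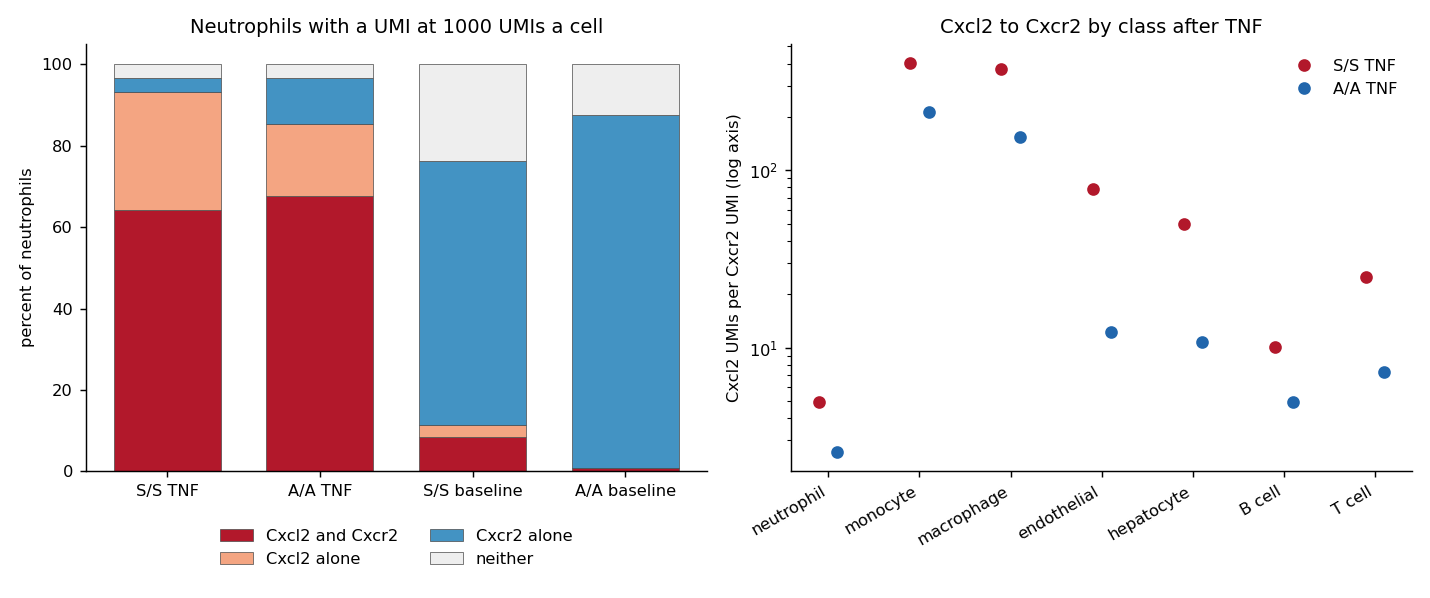
Share of neutrophils (percent) with both Cxcl2 and Cxcr2, Cxcl2 alone, Cxcr2 alone or neither at 1000 UMIs per cell, 1 bar per library. The right panel gives Cxcl2 UMIs per Cxcr2 UMI (log axis) by class in the TNF libraries. Both transcripts were in 64.1 and 67.6% of neutrophils after TNF (S/S and A/A) against 8.40 and 0.885% at baseline.

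Counted over all members and classes, a ratio was called when it passed 2-fold with at least 20 UMIs in the pair of libraries. For TNF against baseline in A/A, 16 of 25 possible values reached the minimum, 15 were over 2-fold higher and 0 lower. Of all genes compared, 16.4% were called higher and 33.8% lower in neutrophils, 16.6% and 15.2% in macrophages, 15.8% and 22.8% in monocytes, 22.8% and 18% in endothelial cells, and 22% and 5.74% in hepatocytes. For TNF against baseline in S/S, 14 of 20 reached the minimum, 12 were higher and 0 lower, beside 11.2% of all genes higher and 41.5% lower in neutrophils, 25% and 13.2% in macrophages, 10.1% and 23.9% in monocytes, and 20.8% and 5.62% in hepatocytes. Cxcr2 in monocytes, endothelial cells and hepatocytes accounted for 3 of the 15 in A/A, and in monocytes and hepatocytes for 2 of the 12 in S/S, at the low levels given above. Of the counted values, 14 in A/A and 8 in S/S reached the minimum through the TNF library alone and could hardly have been called otherwise, so the counts are a description and are not read against the shares over all genes.

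The genotypes were then compared within each treatment. After TNF, 19 of 25 possible values of S/S over A/A reached the minimum, 6 were over 2-fold higher in S/S and 0 lower. Of the 19, Cxcl3 in monocytes and in endothelial cells reached it through the S/S library alone. These 2 could hardly have been called otherwise. Of all genes, 2.14% were called higher and 1.99% lower in neutrophils, 4.86% and 6.27% in macrophages, 3.82% and 0.984% in monocytes, 4.64% and 3.57% in endothelial cells, and 8.45% and 4.25% in hepatocytes. Cxcl2 accounted for the hepatocyte value (3.69-fold, 3.23 to 4.22) and the endothelial value (2.90-fold, 2.64 to 3.19). Cxcl2 of S/S over A/A was of like size in classes used above as a measure of free RNA, 2.88-fold in B cells and 3.11-fold in T cells, and it was 4.18-fold in plasmacytoid dendritic cells and 0.992-fold in NK or ILC1 cells. The part of free RNA in the hepatocyte and endothelial values was not tested. Cxcl3 accounted for the neutrophil value (7.09-fold, 5.96 to 8.49), the monocyte value (5.28-fold, 3.23 to 9.14) and the endothelial value (113-fold, 19.8 to 4537, with 1 UMI in A/A). Cxcl1 in neutrophils made the sixth, at 1.07 on the log2 scale (0.70 to 1.60), with 28 of the 110 UMIs of S/S in 1 barcode. The share of neutrophils with a Cxcl1 UMI was close, at 3.15% in S/S and 2.62% in A/A. Other values did not pass 2-fold on the scale with the pseudocount: Cxcl2 of S/S over A/A was 0.55 on the log2 scale in neutrophils, 0.13 in monocytes and 0.85 in macrophages. Cxcr2 in endothelial cells stood at that limit, with 4.19 CPM (17 UMIs) in S/S and 9.32 CPM (53 UMIs) in A/A, a log2 ratio of -0.99. Cxcl1 was 0.27 in macrophages and 0.32 in hepatocytes on the log2 scale, and the macrophage value turned to -0.65 with classes taken from clusters.

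Cxcr2 ran the other way, with less in S/S than in A/A neutrophils in both treatments. Its log2 ratio of S/S over A/A was -0.39 after TNF and -0.56 at baseline, both within 2-fold. Without replicates, the spread between mice is unknown and these differences cannot be set against it.

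At baseline, 6 of 20 possible values of S/S over A/A reached the minimum, 4 were over 2-fold higher and 1 lower. The 4 higher values reached the minimum through the S/S library alone, and the lower one through the A/A library alone. They could hardly have been called otherwise, so these counts are a description and are not read against the shares over all genes. Of all genes, 8.96% were called higher and 2.97% lower in neutrophils, 9.68% higher and 4.98% lower in monocytes, 5.94% higher and 18.3% lower in macrophages, and 18.4% higher and 10.3% lower in hepatocytes. Cxcl2 in neutrophils was 11.2-fold higher in S/S (7.0 to 18.9), the only one of these that did not rest on 1 or 2 barcodes. In monocytes Cxcl2 was 29.4-fold higher in S/S (9.99 to 143, with 3 UMIs in A/A), and it was 1.26 on the log2 scale with classes taken from clusters. In hepatocytes it was at least 15.8-fold higher, from 1 barcode. In macrophages it was lower in S/S, at -2.87 on the log2 scale, with 56 of the 70 UMIs of A/A in 1 barcode. Cxcl3 in monocytes was the remaining higher value, with 46 of its 49 UMIs in 1 barcode.

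The baseline gap in neutrophil Cxcl2 made the TNF ratios of the genotypes differ. On the log2 scale the neutrophil ratio was 4.51 in S/S and 7.404 in A/A, a difference of -2.89, although the level after TNF was higher in S/S. The same difference was -4.44 in monocytes and 3.72 in macrophages, where the baselines rest on the few UMIs and barcodes named above. In hepatocytes TNF over baseline was 19.2-fold in S/S, from a baseline of 1 barcode, and at least 82.2-fold in A/A, whose baseline held 0 UMIs. None of these differences was tested.

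By the likeness of levels over the 19 sums of a class and a library, the genes closest to each member were few and differed between members. Likeness was the Pearson r of log2 levels among 11810 genes, a description over sums that share libraries and depth. Closest to Cxcl2 were Cd14 (r = 0.91), a receptor for bacterial lipopolysaccharide, Ccl3 (0.91), a CC chemokine, and Slc7a11 (0.87), a cystine transporter. Closest to Cxcl1 were the metallothionein genes Mt2 (0.90) and Mt1 (0.89) and Sqstm1 (0.87), an autophagy receptor. Closest to Cxcl3 were Enah (0.93), Thbs1 (0.87) and Tnfsf9 (0.82), and closest to Cxcr2 were S100a9 (0.97), itself a gate marker, Gm39321 (0.97) and Cstdc4 (0.97). With all gated classes in place of the 5, the nearest 3 genes changed for all 4 members: 2 of the 3 were shared for Cxcl1, 1 for Cxcl3 and 0 for Cxcl2 and Cxcr2.

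The other genes of the pathway were taken from 7 lists with 62 genes in all. Among 17 inducers and controllers of the chemokine transcripts, 16 were counted in neutrophils of each genotype. There, 9 were over 2-fold higher and 1 lower after TNF in S/S, and 10 higher and 1 lower in A/A. In macrophages 13 of 16 were higher in S/S and 11 of 16 in A/A, with 0 lower. Tnfaip3, the NF-kB feedback inhibitor A20, stood at 670 CPM in S/S neutrophils after TNF against 66.3 CPM at baseline, and at 607 CPM in A/A neutrophils after TNF against 48.2 CPM at baseline. Nfkbia, which encodes the inhibitor IkB-alpha, stood at 4503 CPM against 433 CPM in S/S neutrophils and at 4218 CPM against 429 CPM in A/A neutrophils, after TNF and at baseline. Beside them, 11.2% (S/S) and 16.4% (A/A) of all genes were called higher in neutrophils, and 25% and 16.6% in macrophages. In other classes, 12 of 14 counted genes were over 2-fold higher after TNF in S/S hepatocytes and 14 of 14 in A/A hepatocytes. A/A endothelial cells had 13 of 17 higher and 1 lower. In monocytes 11 of 17 were higher in S/S and only 4 of 16 in A/A. Of all genes, 20.8% (S/S) and 22% (A/A) were called higher in hepatocytes, 22.8% in A/A endothelial cells, and 10.1% (S/S) and 15.8% (A/A) in monocytes.

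Of 6 receptor genes for other attractants, 2 in S/S and 3 in A/A neutrophils were over 2-fold higher after TNF and 0 lower, beside 11.2% and 16.4% of all genes called higher. Fpr2, a formyl peptide receptor, stood at 1213 CPM in S/S neutrophils after TNF against 128 CPM at baseline, and at 1583 CPM in A/A neutrophils after TNF against 92.9 CPM at baseline. Of 16 genes of CXCR2 signalling, 0 were over 2-fold higher and 7 lower in each genotype, beside 41.5% of all genes called lower in S/S neutrophils and 33.8% in A/A neutrophils, so their share was near the background. Dock2, the Rac activator needed for neutrophil migration, stood at 225 CPM in S/S neutrophils after TNF against 1367 CPM at baseline, and at 253 CPM in A/A neutrophils after TNF against 1639 CPM at baseline. Rgs2, which shortens G protein signals, stood at 129 CPM against 744 CPM in S/S and at 142 CPM against 752 CPM in A/A.

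Genes that hold neutrophils in the bone marrow or let them attach moved in both directions. Cxcr4, the receptor of the marrow retention signal CXCL12, stood at 111 CPM in S/S neutrophils after TNF against 370 CPM at baseline, and at 121 CPM in A/A neutrophils after TNF against 468 CPM at baseline. Csf3r, the G-CSF receptor and a marker used in the gate, stood at 1436 CPM against 3736 CPM in S/S neutrophils and at 1960 CPM against 5232 CPM in A/A neutrophils. Of 12 adhesion and chemokine display genes, 10 were counted in S/S neutrophils, 4 higher and 2 lower, and 9 in A/A neutrophils, 4 higher and 1 lower; of all genes, 11.2% were higher and 41.5% lower in S/S neutrophils and 16.4% and 33.8% in A/A neutrophils. Icam1, a ligand of leukocyte integrins, stood at 757 CPM in S/S neutrophils after TNF against 54.7 CPM at baseline, and at 918 CPM in A/A neutrophils after TNF against 41.1 CPM at baseline. In macrophages 7 of 10 counted genes of that list were higher and 1 lower in S/S, and 6 of 10 higher and 0 lower in A/A, beside 25% of all genes higher and 13.2% lower in S/S macrophages and 16.6% and 15.2% in A/A macrophages. Sdc4, which encodes a heparan sulfate proteoglycan that can bind chemokines, stood at 1450 CPM in S/S macrophages after TNF against 27.3 CPM at baseline, and at 928 CPM in A/A macrophages after TNF against 36.7 CPM at baseline. Of the other chemokine genes listed, Pf4, a platelet chemokine gene that lacks the Glu-Leu-Arg motif, stood at 1328 CPM against 248 CPM in S/S macrophages and at 723 CPM against 120 CPM in A/A macrophages.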

How the data were processed

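Liver cells of 4 libraries (S/S TNF, A/A TNF, S/S baseline, A/A baseline) were analysed. Per the submitters' processing notes and the file headers, reads were aligned and counted with Cell Ranger (6.1.2 for both TNF libraries, 7.1.0 for both baseline libraries) on mm39; the authors deposited its integer UMI counts, not normalized. Whether introns were counted is not given in the sources used here. Intron-only bases are those in no exon of any transcript of the reference annotation used. Cxcl1, Cxcl2 and Cxcl3 have none, Cxcl5 has 402 and Cxcr2 4210. A gene with none can still have introns in some of its transcripts. In the TNF matrices no barcode had fewer than 250 genes or more than 20% mitochondrial UMIs; the baseline matrices had both kinds.

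Kept cells had 300 genes or more, with mitochondrial UMIs no higher than 20%. A marker was present in a cell with at least 1 UMI and at least its share over the library's kept cells. A cell took the class whose markers were present in the highest share if that was at least 30% and the runner-up was at most 50% of it, except that the 2 monocyte lists did not compete; other cells stayed ungated. Cells near these limits made up 8.85 to 36.8% of a class. No doublet caller was used. UMIs were summed per class and library and scaled to the class total. Levels have exact Poisson intervals, and ratios exact conditional binomial ones, both at 95%. Log2 ratios used a pseudocount of 1 CPM and needed 50 cells in both libraries. With 1 library per group no test was possible; a call means past 2-fold. For ratios against 0, 3 UMIs per class and library were used. The calling was tried on simulated Poisson counts for A/A macrophages and neutrophils, TNF against baseline. Of simulated 4-fold differences 98.3% and 94.7% passed 2-fold, and of unchanged genes 1.68% and 8.07%. The simulation held no spread between cells or mice. Of 30 clusters made with scanpy 1.11.5, those of the same name held 84.2 to 100% of a class's gated cells. All members were named. For likeness the 3 genes with the highest r over sums of 5 classes by 4 libraries, and at least 100 UMIs, were named; from each pathway list the named genes came from the 4 with the largest ratios in neutrophils or macrophages. The members and the lists were chosen with earlier results of these data known. Alternatives were a stricter and a looser gate, classes from clusters, other cell filters, scalings, pseudocounts and minimums, thinning, and leaving out the top barcode. Promoters came from RefSeq tables (GRCm38.p6) and transcripts from GENCODE M21, not from mm39. Scripts ran under Python 3.11.15 with pandas 2.3.3, scipy 1.17.1 and numpy 2.4.6.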

Additional observations from a re-analysis of the deposited data

Results flagged for a closer look

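Cxcl2 in macrophages had opposite signs in the genotype comparisons: the log2 ratio of S/S over A/A was 0.85 after TNF and -2.87 at baseline. The difference between these ratios was not tested. The baseline value rests on 6 UMIs in S/S and 70 UMIs in A/A, 56 of them in 1 barcode, and with classes taken from clusters it was -0.10.

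Barcodes left out by the filter, which no comparison used, held Cxcl2 above the level of the baseline library of the same genotype. The left-out barcodes had 102 CPM (105 UMIs) in S/S after TNF, against 0.987 CPM (1 UMI) in S/S at baseline. Those of A/A had 225 CPM (21 UMIs) after TNF, against 0 UMIs at baseline. The left-out sets are not alike. The TNF matrices held no barcode with fewer than 250 genes or more than 20% mitochondrial UMIs, and the baseline matrices held both kinds.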

How the results depend on the processing

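Of the 55 ratios counted, 38 were over 2-fold, and under 14 alternative settings all 464 values of those 38 kept their direction, 451 of them still over 2-fold and 13 under it. Most of the 38 reached the minimum through 1 library alone, as given above, so their direction could hardly have turned. Values that fell below the minimum of UMIs or cells under a setting are not among the 464. The kept directions are therefore a description and no separate check. With cells thinned to 1000 UMIs the members called higher after TNF numbered 8 in A/A and 7 in S/S, since fewer values reached the minimum. At baseline, values of S/S over A/A called higher numbered 2 when thinned, 1 with a stricter gate and 2 without the top barcode. The value called lower at baseline, Cxcl2 in macrophages, was lost (0 called) when thinned, with classes from clusters, with a stricter gate, without the top 1% of cells by UMIs and without the top barcode; with no minimum of UMIs 2 were called. After TNF, 1 value of S/S over A/A, Cxcr2 in endothelial cells or in monocytes, was called lower with classes from clusters, a stricter or looser gate, a pseudocount of 0.1 CPM, totals without mitochondrial, Rn18s-rs5 and hemoglobin UMIs, or without the top 1% of cells or the top barcode. The cause was not tested.

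The share of Cxcl2 UMIs in neutrophils was 62.0% in S/S and 77.1% in A/A after TNF with classes from clusters, 57.1% and 70.8% with a looser gate, 41.0% and 53.2% with a stricter gate, 44.3% and 57.1% without the top 1% of cells, and 59.3% in A/A with a filter of 500 genes and 10% mitochondrial UMIs. That of Cxcr2 was 94.97% and 96.9%, 92.2% and 92.3%, 76.6% and 80.5%, and 77.4% and 81.5% under the same settings, and 83.3% and 84.9% with that filter. Macrophage values rested on few deep cells: Cxcl2 of S/S over A/A after TNF ranged from 0.22 (clusters) to 1.90 (without the top 1% of cells) on the log2 scale. The class totals without S100a8 and S100a9 were chosen after seeing the data; Cxcr2 in neutrophils was then 0.41 in S/S and 0.30 in A/A, TNF over baseline. No paired analysis was possible because each group had 1 library. Depth limits Cxcl5 in all classes and Cxcl1 and Cxcl3 at baseline, where a class held 0 to 4 UMIs outside the S/S monocytes.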

Other observations

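Small classes outside the 5 compared held some of the members. Of the 2 cells gated as stellate or fibroblast in S/S after TNF, 1 held 21 Cxcl1 UMIs (8323 CPM for the class). The 4 cells so gated in A/A after TNF held 0. An ungated barcode of A/A after TNF whose best list was the stellate or fibroblast one held 59 Cxcl1 UMIs (5.47% of the library's). In A/A after TNF all 12 cells gated as mast cells or basophils had a Cxcr2 UMI, with 76 UMIs in all (539 CPM), below the neutrophils of the same library. In S/S after TNF 1 barcode gated as platelet or megakaryocyte held 314 of the 2825 Cxcl3 UMIs (11.1%). An ungated barcode of the same library whose best list was the B cell one held 802 Cxcl2 UMIs, the most of any barcode. Cells gated as erythroid numbered 667 in S/S after TNF, and 198 of them held a Cxcl2 UMI, with 273 CPM; S100a8 and S100a9 summed to 1537 CPM there.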
